A study of Mus musculus with 28 samples.

Results

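Macrophages that clear lipid and dying cells share a set of genes, and 10 of them were followed here through the remodeling of the mouse arteriovenous fistula (AVF): *Spp1*, *Gpnmb*, *Trem2*, *Fabp5*, *Lgals3*, *Cd36*, *Msr1*, *Apoe*, *Abca1*, and *Apoc2*. They are 10 of the 56980 genes in the bulk count table. They were selected on values of these data seen earlier, namely their bulk differences between AVFs and contralateral veins and their single-cell levels in macrophages. Their differences from contralateral veins are therefore given as a description, with SEs and without *p* values. Comparisons between AVF times, other genes, and relations among vessels of 1 group are given with tests, but the lists of other genes were also drawn up with results of these data known. In the bulk libraries 9 of the 10 genes had a mean count high enough for the fit, and *Apoc2* did not.

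The vessels came from C57BL/6 mice of both sexes that had all undergone a 5/6 nephrectomy before surgery, so that contralateral veins too come from animals with reduced kidney mass. For the AVF the cut jugular vein was sewn onto the flank of the carotid artery, and the jugular vein of the other side served as control. Bulk RNA sequencing covered 25 vessels, 1 library per vessel: 7 contralateral veins (5 female, 2 male), 8 early AVFs (3 female, 5 male), 5 mid AVFs (3 female, 2 male), and 5 late AVFs (3 female, 2 male), with 3, 10, and 21 as the day in the names of early, mid, and late samples. Single-cell RNA sequencing covered 3 libraries, contralateral, early, and late, each from 10 pooled vessels of both sexes. The early and late pools were harvested, on average, later than the bulk vessels of the same name, and no day is given for contralateral veins. The single-cell pools drew on fewer mice than vessels, so that contralateral veins shared animals with AVFs. The harvest days of the bulk vessels varied around the day in the name. The labels do not say which contralateral vein belongs to which AVF.

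Bulk libraries held between 20254173 and 67457501 counts. Levels are given as CPM, a gene's counts scaled to a common library size after TMM adjustment. The 6 endothelial and 6 smooth muscle cell (SMC) markers were detected in all 25 libraries, as a vein requires. Their summed levels were far lower in AVFs: from 2004 to 3349 CPM in contralateral veins and from 269 to 544 CPM in early AVFs for endothelial markers, and from 9653 to 21060 CPM against 1015 to 2589 CPM for SMC markers. Markers of skeletal muscle, which lies beside the vessels, had a median sum of 1.94 CPM in contralateral veins, 214 CPM at the early, 1209 CPM at the mid, and 579 CPM at the late time.

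Macrophages take up modified lipoproteins and cell debris through scavenger receptors such as *Cd36* and *Msr1*, break them down in lysosomes, store cholesterol as esters, and return it to the blood through the transporter *Abca1* and apolipoproteins such as *Apoe* and *Apoc2*. *Trem2* is a surface receptor for lipids that signals through the adaptor *Tyrobp*, and *Gpnmb* is a transmembrane glycoprotein of lysosome-rich macrophages. *Fabp5* carries fatty acids within the cell, and *Lgals3* encodes galectin-3, a lectin that binds sugars of the β-galactoside kind. *Spp1* encodes osteopontin, a secreted phosphoprotein that binds integrins and CD44 and is made in injured vessel walls by macrophages and by SMCs. Together *Trem2*, *Gpnmb*, *Fabp5*, *Spp1*, and *Lgals3* are often used to mark lipid-associated macrophages.

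The promoters of *Spp1*, *Gpnmb*, and *Trem2* are shown because *Spp1* and *Trem2* followed each other across the vessels, whereas *Gpnmb* did not. Each runs from 250 bases before a RefSeq transcript start to 50 bases after it (GRCm38.p6), and these starts are base 104435111 for *Spp1*, 49036518 for *Gpnmb*, and 48346401 for *Trem2*, which for the first pair lie before the gene starts of the GENCODE annotation used for the loci. All 3 genes lie on the + strand. *Spp1* occupies chr5:104435118-104441050, *Gpnmb* chr6:49036546-49070929, and *Trem2* chr17:48346401-48354147 (GRCm38). Capitals in the sequences mark the motifs found, GAGGAA or its reverse complement TTCCTC, the core bound by PU.1-type ETS factors, and TGACTCA, the reverse complement of the AP-1 motif TGAGTCA.
Spp1 promoter, chr5:104434861-104435160: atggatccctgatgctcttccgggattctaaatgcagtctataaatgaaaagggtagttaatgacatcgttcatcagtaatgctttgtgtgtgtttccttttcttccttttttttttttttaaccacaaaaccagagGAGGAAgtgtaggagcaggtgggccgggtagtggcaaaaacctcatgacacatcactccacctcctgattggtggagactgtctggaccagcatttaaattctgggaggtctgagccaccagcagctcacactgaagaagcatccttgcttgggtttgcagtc
Gpnmb promoter, chr6:49036268-49036567: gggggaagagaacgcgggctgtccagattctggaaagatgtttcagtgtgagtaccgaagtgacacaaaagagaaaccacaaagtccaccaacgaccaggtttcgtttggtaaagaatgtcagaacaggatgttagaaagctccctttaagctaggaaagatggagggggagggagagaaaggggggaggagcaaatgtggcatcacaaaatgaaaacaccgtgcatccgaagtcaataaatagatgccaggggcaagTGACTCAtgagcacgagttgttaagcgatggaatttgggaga
Trem2 promoter, chr17:48346151-48346450: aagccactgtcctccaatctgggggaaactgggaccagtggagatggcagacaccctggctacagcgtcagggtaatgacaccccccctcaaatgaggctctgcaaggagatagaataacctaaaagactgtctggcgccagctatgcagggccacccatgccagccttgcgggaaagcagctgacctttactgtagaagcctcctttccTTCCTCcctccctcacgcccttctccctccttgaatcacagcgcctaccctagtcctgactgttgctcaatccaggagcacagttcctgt
In this window *Spp1* held GAGGAA 113 bases before the RefSeq start, and *Trem2* held its complement 40 bases before it. *Gpnmb* held the AP-1 letters 8 bases after its RefSeq start. GAGGAA on either strand occurs in 28.3% of all 32851 promoters of this length and in 4 of the 11 promoters found for 8 of the 10 genes, and TGAGTCA in 5.20% and in 1 of the 11. The E-box TCACGTG of lysosomal MiT/TFE factors, found in 3.77% of promoters, was in none of the 11, and the direct repeat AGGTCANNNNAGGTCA read by LXR, found in 0.0152%, was in none either. A match of letters is not a binding site. *Fabp5* and *Msr1* are named only.

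*Spp1* was far higher in AVFs of all 3 times than in contralateral veins. In contralateral veins its level ran from 0.196 CPM (vein 632) over a median of 20.8 CPM to 81.5 CPM (vein 35). In the 8 early AVFs the lowest level was 1063 CPM (AVF 10), the median 3754 CPM, and the highest 13490 CPM (AVF 7). The lowest early AVF thus lay above the highest contralateral vein, and the early AVFs themselves were spread widely. Mid AVFs 9, 12, 13, 14, and 15 had 1075, 630, 640, 1193, and 1121 CPM. Late AVFs 16, 17, 19, 23, and 24 had 627, 952, 455, 506, and 608 CPM. Every AVF of the 3 times lay above every contralateral vein, and mid and late AVFs overlapped. Against contralateral veins the log2 fold change was 7.73 for early (SE 0.945, *n* = 8 and 7), 5.26 for mid (SE 0.868), and 4.70 for late AVFs (SE 0.848).

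*Trem2* followed the same course at a lower level. It ran from 0 CPM (vein 31) over a median of 0.548 CPM to 6.52 CPM (vein 35) in contralateral veins, and from 79.2 CPM (AVF 10) over a median of 99.4 CPM to 659 CPM (AVF 6) in early AVFs. In mid AVFs 9, 12, 13, 14, and 15 it had 79.1, 62.8, 41.9, 69.3, and 63.2 CPM. In late AVFs 16, 17, 19, 23, and 24 it had 39.1, 58.1, 48.5, 28.1, and 31.4 CPM. No AVF of any time reached down to the contralateral range, and no late AVF reached up to the early range. Against the same veins the early value was 7.18 (SE 0.892), the mid value 5.47 (SE 0.849), and the late value 4.85 (SE 0.828).

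*Gpnmb* behaved otherwise. Its contralateral levels ran from 132 CPM (vein 28) over a median of 251 CPM to 528 CPM (vein 633), and its early levels from 118 CPM (AVF 7) over a median of 208 CPM to 368 CPM (AVF 4). These groups overlapped throughout, with a log2 fold change of −0.17 (SE 0.307). In mid AVFs 9, 12, 13, 14, and 15 it had 716, 433, 412, 489, and 561 CPM, and in late AVFs 16, 17, 19, 23, and 24 it had 383, 530, 352, 163, and 174 CPM. All mid AVFs thus lay above all early AVFs, and the late AVFs fell into 2 low and 3 higher vessels, which are the 2 male and the 3 female ones. Among contralateral veins the order was the opposite, with the 2 male veins highest at 293 and 528 CPM, and the highest mid AVF, 9, was male. Its log2 fold change against contralateral veins was 1.05 (SE 0.344) in mid and 0.35 (SE 0.345) in late AVFs.

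*Lgals3* lay between these patterns. It ran from 58.4 to 211 CPM in contralateral veins (median 109 CPM) and from 684 to 5596 CPM in early AVFs (median 1022 CPM), from 495 to 760 CPM in mid, and from 258 to 520 CPM in late AVFs. AVFs and contralateral veins did not overlap at any time. Log2 fold changes were 3.80 (SE 0.433), 2.28 (SE 0.432), and 1.70 (SE 0.427). The last value was near the limit of the call defined below, and 17 of 33 other settings lost it.

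**Figure D1:**
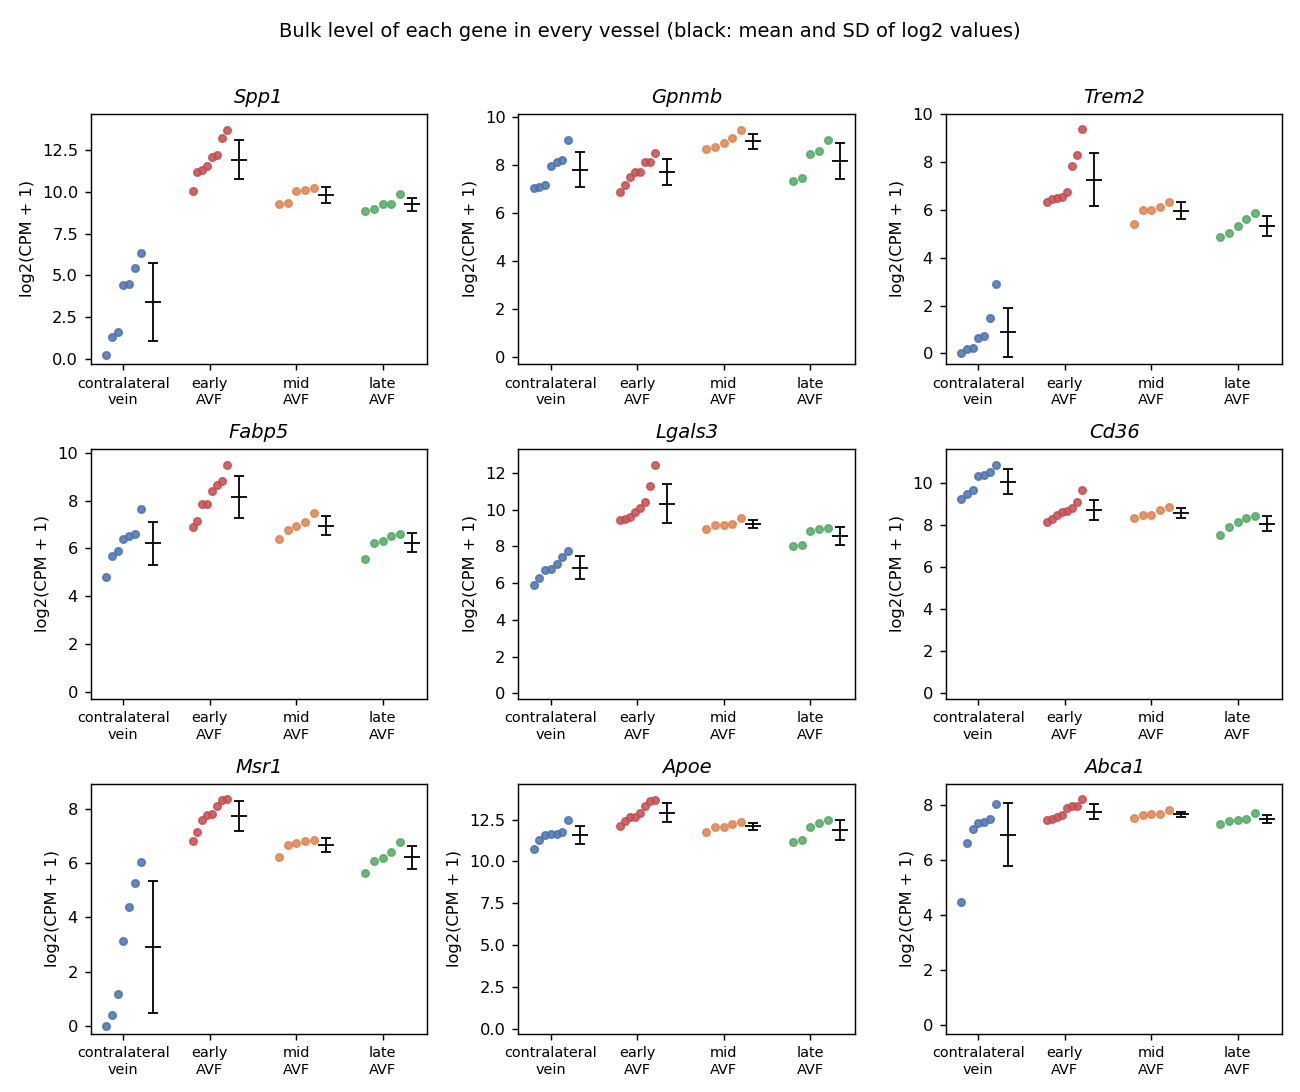
Level of the 9 fitted genes in each of the 25 bulk vessels, as log2(CPM + 1), with vessels sorted by level within contralateral, early, mid, and late groups. The black bars give the mean and SD of the log2 values, and *Spp1*, *Trem2*, and *Lgals3* are higher in every AVF than in any contralateral vein, whereas *Cd36* is lower in most.

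Of the uptake receptors, *Cd36*, which binds fatty acids and oxidized lipoproteins, was the only member with lower levels in AVFs at all 3 times. It ran from 599 to 1883 CPM in contralateral veins (median 1288 CPM), from 283 to 809 CPM in early (median 399 CPM), from 318 to 465.8 CPM in mid, and from 182 to 342 CPM in late AVFs. Early AVFs overlapped contralateral veins only through AVF 3, at 809 CPM, and mid and late AVFs lay below all of them. Log2 fold changes were −1.39 (SE 0.246), −1.60 (SE 0.291), and −2.09 (SE 0.298). Adipocyte markers, whose cells also use *Cd36*, had a median sum of 1008 CPM in contralateral veins, 322 CPM at the early, 235 CPM at the mid, and 219 CPM at the late time, and endothelial markers were lower as given above. Their part in the *Cd36* values was not tested.

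*Msr1*, the class A scavenger receptor, had a mean of 18.8 ± 24.5 CPM (SD, *n* = 7) in contralateral veins, where it ran from 0 to 64.9 CPM, and of 228 ± 79.0 CPM (*n* = 8) in early AVFs, where it ran from 113 to 328 CPM. Means were 102 ± 16.5 CPM in mid and 76.5 ± 22.6 CPM in late AVFs (*n* = 5 each). The late range began at 49.0 CPM and so overlapped the contralateral veins. The log2 fold changes of 3.60, 2.44, and 2.03 carried SEs of 0.824, 0.833, and 0.825.

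Among the carriers, *Fabp5* was higher in early AVFs, with 328 ± 199 CPM (SD, *n* = 8) against 86.6 ± 56.6 CPM in contralateral veins (*n* = 7), and was close to the contralateral level by the late time, at 76.8 ± 19.0 CPM (*n* = 5). *Apoe* had 8307 ± 3338 CPM in early AVFs against 3226 ± 1235 CPM in contralateral veins, 4403 ± 630 CPM in mid, and 3952 ± 1501 CPM in late AVFs. The early ranges of both genes overlapped the contralateral ranges, which reached 202 CPM for *Fabp5* and 5717 CPM for *Apoe*, each in vein 31. *Abca1* overlapped between contralateral veins and AVFs of every time, with 145 ± 73.5, 218 ± 42.3, 200 ± 14.2, and 177 ± 17.8 CPM in contralateral, early, mid, and late vessels and estimates against contralateral veins of 0.58 (SE 0.284), 0.46 (SE 0.317), and 0.28 (SE 0.318) on the log2 scale. *Apoc2* had 0 counts in all 25 libraries. Its locus, chr7:19671579-19677941 on the − strand, is overlapped on the same strand by the gene model *Gm44805*, which also had 0 counts, while the neighboring *Apoc4* had 692. The part of this overlap in the zeros was not tested, and the single-cell libraries did hold *Apoc2* UMIs.

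A gene was called where edgeR's quasi-likelihood test gave a Benjamini-Hochberg adjusted *p* under 0.01 and the change was 2-fold or more in either direction. In early AVFs against contralateral veins 6 of the 9 fitted members were called higher, when 6.17% of all 12673 genes tested were, and *Cd36* was called lower, as were 6.45%. *Spp1*, *Trem2*, *Lgals3*, and *Msr1*, 4 of 9, had early vessels that all lay above all contralateral veins, a pattern shared by 4.47% of genes. In mid AVFs *Spp1*, *Trem2*, and *Lgals3* were called higher (2.74% of genes) and *Cd36* lower (3.31%). The late calls were the same 3 genes higher (2.49%) and *Cd36* lower (2.85%). These counts follow from how the genes were picked.

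**Figure D2:**
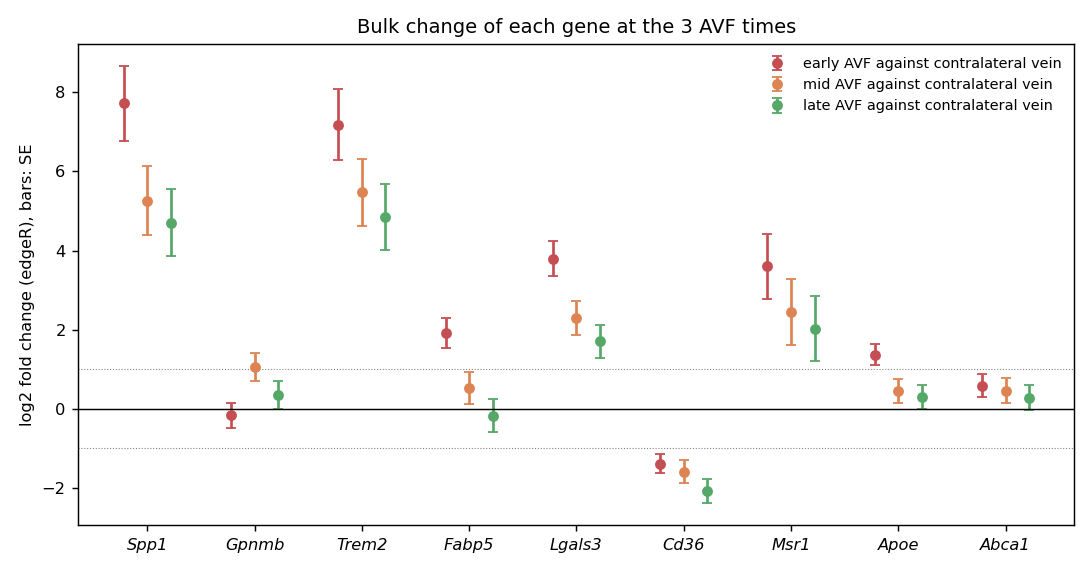
Log2 fold change of the 9 fitted genes in early, mid, and late AVFs against contralateral veins (edgeR, points) with SE (bars). The dotted lines mark a log2 fold change of 1 and −1; the values of most genes fall from early to late, *Gpnmb* has its highest value in mid AVFs, and all 3 values of *Cd36* lie below 0.

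Macrophage markers moved with these genes. The summed level of 11 mono/macro markers was 778 to 2649 CPM in contralateral veins, 3635 to 13160 CPM in early, 2919 to 3985 CPM in mid, and 2415 to 4325 CPM in late AVFs, and the early calls included 9 of the 11, the mid and late calls 1 each, all higher. From bulk vessels alone, more macrophages and more RNA of a gene per macrophage cannot be told apart. Divided by this sum, the median of *Spp1* went from 0.0111 in contralateral veins to 0.467, 0.270, and 0.209 in the 3 AVF groups, and that of *Trem2* from 0.000238 to 0.0223, 0.0189, and 0.0116. Such a ratio is not a level per macrophage, since other cells of the early single-cell library held *Spp1* as well. The ratio of *Gpnmb* went from 0.105 to 0.0306 and then to 0.148 and 0.0983. *Cd36* had median ratios of 0.697 in contralateral veins and 0.0725 in early AVFs, while *Apoe* had 1.73 and 1.19.

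Individual early AVFs ranked differently by gene. AVF 7 had the highest *Spp1* level of all vessels together with the lowest macrophage marker sum of the early AVFs, so that its ratio of *Spp1* to that sum was 3.71, against 0.254 to 0.718 in the other early vessels. It also had the lowest early sums of endothelial, SMC, and fibroblast markers, and the lowest *Gpnmb* and *Apoe* levels of the early group. AVF 6 had the highest *Trem2*, *Lgals3*, *Fabp5*, and *Msr1* levels and the highest marker sum, and its platelet marker sum reached 12690 CPM, when the early median was 1871 CPM.

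Comparisons between AVF times set AVFs against AVFs, although the contralateral veins were in the same model and entered its estimate of the spread. They did reuse the early values on which most members were selected as high, so lower values at later times are favored by that choice and are no independent evidence of a decline. Late against early AVFs, 2 of 9 members fell, *Fabp5* by 2.09 on the log2 scale (SE 0.436, adjusted *p* = 0.00441, edgeR) and *Lgals3* by 2.09 (SE 0.456, adjusted *p* = 0.00529), in a contrast where 2.28% of genes were called lower. Both calls rest on the number of vessels: without any single late AVF the count of called members was 0, and without early AVF 5 it was 1. The estimate for *Spp1* was −3.03 (SE 0.866, adjusted *p* = 0.0306) and that for *Apoe* −1.07 (SE 0.300, adjusted *p* = 0.0271), short of the threshold. For 5 of 9 members, *Spp1*, *Trem2*, *Fabp5*, *Lgals3*, and *Msr1*, all late vessels lay below all early vessels, as did 8.39% of genes. None was called higher by edgeR or DESeq2, when 0.726% of genes were. DESeq2 called 4 members lower.

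Between mid and early AVFs no member was called in either direction by edgeR or DESeq2, and of all genes 0.00789% were called higher and 0% lower by edgeR. At an unadjusted *p* under 0.05 there were 6 of 9 members, against 12.7% of genes. *Gpnmb* came nearest, with an estimate of 1.22 on the log2 scale (SE 0.332, adjusted *p* = 0.0323) and no overlap between the groups, a pattern toward higher mid levels that 3.31% of genes had. *Spp1* differed by −2.46 (SE 0.839, adjusted *p* = 0.109) and *Lgals3* by −1.51 (SE 0.442, adjusted *p* = 0.0496). Between late and mid AVFs 0 of 9 members were called by edgeR and by DESeq2, 0 of 9 had an unadjusted *p* under 0.05, as had 0.308% of genes, and 0% of genes were called higher and 0% lower. All 9 late estimates lay below the mid ones, from −0.16 for *Apoe* (SE 0.321) to −0.71 for *Fabp5* (SE 0.445), each within 2 SEs of 0.

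Sex did not change the early difference of any member at an adjusted *p* under 0.05: 0 of 9 passed edgeR's test of the interaction, as did 0.45% of genes, and 1 had an unadjusted *p* under 0.05. That gene was *Cd36*, whose early log2 fold change was 1.43 higher in males than in females (SE 0.470, adjusted *p* = 0.278, edgeR). Only 2 contralateral veins were male. For *Spp1* the difference between the sexes was 0.27 (SE 1.51).

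Among the 8 early vessels, members were compared with *Spp1* on log2(CPM + 1), 16 relations in all with those among the 7 contralateral veins. No relation passed an adjusted *p* of 0.05 in exact two-sided permutation tests, and 3 early relations had an unadjusted Pearson *p* under 0.05. *Fabp5* had *r* = 0.82 (exact permutation *p* = 0.0143, adjusted *p* = 0.127) and Spearman's rho = 0.83 (exact permutation *p* = 0.0154, adjusted *p* = 0.147). *Msr1* had *r* = 0.81 (exact permutation *p* = 0.0159, adjusted *p* = 0.127) and rho = 0.74 (exact permutation *p* = 0.0458, adjusted *p* = 0.147). *Gpnmb* ran the other way, with *r* = −0.72 (exact permutation *p* = 0.0422, adjusted *p* = 0.225) and rho = −0.74 (exact permutation *p* = 0.0458, adjusted *p* = 0.147). Without AVFs 7 and 10, the 2 farthest from the median of *Spp1*, these *r* values were 0.96, 0.71, and −0.50, and those of *Trem2* and *Lgals3* went from 0.53 and 0.63 to 0.98 and 0.94 (*n* = 6). None of the 8 contralateral relations had an unadjusted *p* under 0.05.

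As a description across all 25 libraries, which differ in group, depth, and cell makeup, *Spp1* and *Trem2* had *r* = 0.95 and *Spp1* and *Gpnmb* *r* = 0.039. The tested genes most like *Spp1* by this measure were *Ncf4* (0.976), *Itga2* (0.958), *Slc16a3* (0.957), *Sirpb1b* (0.955), and *Cdk1* (0.953). Those most like *Trem2* were *Clec4d* (0.979), *Slc15a3* (0.974), *Fgd3* (0.971), *Adam8* (0.967), and *Cxcl2* (0.965). *Gpnmb* had no such close partner: its nearest were *Ctsk* (0.77), *Col1a1* (0.75), *Psap* (0.74), *Col6a2* (0.735), and *Sec31a* (0.733), and *Ctsk*, a collagen-degrading protease, and the collagen chains *Col1a1* and *Col6a2* stood among them.

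The counts of called genes in the following lists stand beside the shares of all genes given above, 6.17% higher and 6.45% lower in early, 2.74% and 3.31% in mid, and 2.49% and 2.85% in late AVFs, and a count of 1 in a list of 7 to 10 genes is close to them. The receptors of osteopontin did not move as a group. Of 9 tested, *Cd44* and *Itga5* rose in early AVFs and *Itga8* and *Itga9* fell, with a median log2 fold change of 0.30 when the median of all genes was −0.007. *Cd44*, which binds hyaluronan as well, had 101 ± 61.0 CPM in contralateral veins (*n* = 7) and 604 ± 77.5 CPM in early AVFs (*n* = 8), and rose by 2.58 on the log2 scale (SE 0.473, adjusted *p* = 0.000225). *Itga5*, the fibronectin receptor chain, rose by 1.84 (SE 0.428, adjusted *p* = 0.00247). *Itga8*, a leading gene of the SMC cluster in the single-cell data, fell by 2.17 (SE 0.386, edgeR adjusted *p* = 0.000153). It was higher again in late than in early AVFs by 1.84 (SE 0.407, edgeR adjusted *p* = 0.00565). SMC markers were lower in early AVFs as well, and their part in the *Itga8* values was not tested. In mid AVFs *Cd44* was the single receptor called (higher), and in late AVFs none was by edgeR.

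Genes of *Trem2* signalling and of lipid-associated macrophages, 10 tested, had 4 called higher and 0 lower in early AVFs (median log2 fold change 1.69). *Tyrobp*, the signalling partner of *Trem2*, averaged 180 ± 54.0 CPM in contralateral veins and 1910 ± 1497 CPM in early AVFs, and rose by 3.40 on the log2 scale (SE 0.368, adjusted *p* = 1.55e-07). *Clec7a*, the β-glucan receptor, rose by 3.45 (SE 0.772, adjusted *p* = 0.00174), *Cstb*, a cathepsin inhibitor, by 1.84 (SE 0.366, adjusted *p* = 0.00053), and *Syk*, the kinase downstream of *Tyrobp*, by 1.53 (SE 0.283, adjusted *p* = 0.000248). *Tyrobp* and *Cstb* fell from early to late by 2.17 (SE 0.396, adjusted *p* = 0.00241) and 2.32 (SE 0.425, adjusted *p* = 0.00248). In mid AVFs 3 of the 10 were called higher and in late AVFs 2, *Syk* and *Clec7a*.

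Lysosomal genes, 16 tested, had 3 called higher and 0 lower in early AVFs (median 0.69): the proteases *Ctsd*, with 1.90 on the log2 scale (SE 0.222, adjusted *p* = 5.07e-07), and *Ctsb*, with 1.52 (SE 0.205, adjusted *p* = 4.05e-06), and the membrane protein *Cd63*, with 1.08 (SE 0.170, adjusted *p* = 3.49e-05). In mid AVFs *Ctsd* was called higher and *Lamp1* lower, and in late AVFs *Lamp1* alone was called, lower.

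Lipid storage genes were divided, with 2 of 10 called higher and 1 lower in early AVFs (median −0.04). *Plin2*, which coats lipid droplets, rose by 2.39 (SE 0.371, adjusted *p* = 3.01e-05) and fell again from early to late by 1.77 (SE 0.411, adjusted *p* = 0.0079). *Soat1*, which esterifies cholesterol, rose by 1.38 (SE 0.357, adjusted *p* = 0.00577), and *Acsl1*, which activates fatty acids, fell by 1.48 (SE 0.411, adjusted *p* = 0.00946). In mid and in late AVFs 1 of 10 was called, *Fabp4*, which was lower. It is a gene of adipocytes and endothelial cells, and contralateral mono/macros held it too, at 82.8 CPM. Adipocyte and endothelial marker sums were also lower, and their part in the *Fabp4* values was not tested.

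The other uptake receptors, 9 tested, had 0 called in early AVFs by edgeR (median 0.27). DESeq2 was fitted to all genes that passed the filter, but its results were read for the members alone. *Olr1*, *Lrp1*, *Vldlr*, and *Axl*, 4 of the 9, had an unadjusted *p* under 0.05, as had 34.2% of all genes. In late AVFs 1 was called, *Lrp1*, higher. *Axl*, a receptor for dying cells, was higher in late than in early AVFs by 1.02 (SE 0.199, adjusted *p* = 0.00353). Of 7 efflux and LXR genes, 1 was called in early AVFs (median 0.15): *Mylip*, an LXR target that degrades the LDL receptor, fell by 1.33 (SE 0.272, adjusted *p* = 0.000735). Of 9 genes of sterol synthesis, 1 was called (median 0.35): *Insig1*, which holds back that pathway, fell by 1.66 (SE 0.337, adjusted *p* = 0.000679). Most genes of lipid uptake, export, and synthesis were thus not called in early AVFs, which holds for most of all genes tested as well.

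The single-cell libraries give the cells that held these genes. Of 26438 barcodes, 16893 were kept (6319 contralateral, 4753 early, and 5821 late), at a median of 2751, 8951, and 15420 UMIs per cell, and pairs of libraries shared 14 to 19 barcodes. Clusters were named as like a cell type from marker genes, without the members. There was 1 library per condition, so levels carry counting intervals and no test between conditions. Mono/macro-like cells were 765 (12.1%), 1937 (40.8%), and 1576 (27.1%) of the contralateral, early, and late cells, and different clusters made them up: cluster 6 (*F13a1*, *Cd209f*, *Cd163*) held 700 of the 765 contralateral cells, whereas clusters 11 (*Lyz2*, *C1qb*) and 12 (*Il1b*, *Cd14*) held 884 and 1028 of the early and 915 and 644 of the late cells. Fibroblast-like cells likewise were mostly cluster 1 (*Inmt*, *Sfrp2*) in the contralateral library with 1643 cells, cluster 3 (*Aspn*, *Postn*) in the early library with 311, and cluster 0 (*Ptx3*, *C3*) in the late library with 1724. The doublet caller marked 0, 2, and 113 cells of the 3 libraries and so did not work in the contralateral and early ones.

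In mono/macros *Spp1* had 7.48 CPM (95% counting interval 4.93 to 10.9) in the contralateral, 2985 CPM (2965 to 3006) in the early, and 500.2 CPM (491 to 509) in the late library. The early level was 399 times the contralateral one (274 to 606) and the late level 0.168 times the early one (0.164 to 0.171). *Gpnmb* had 11.6, 393, and 195 CPM, ratios of 33.8 (25 to 46.9) for early over contralateral and 0.495 (0.478 to 0.512) for late over early. *Trem2* had 41.0, 484, and 204 CPM, an early ratio of 11.8 (10.0 to 14.0). All 3 were thus higher in macrophages of both AVF libraries, *Gpnmb* included.

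*Fabp5* had 23.0, 1487, and 432 CPM in mono/macros, an early ratio of 64.7 (52.2 to 81.2), and *Apoc2*, which bulk counts did not show, 6.09, 112, and 33.2 CPM, an early ratio of 18.5 (12.2 to 29.5). *Lgals3* stayed near its early level, with 271, 2573, and 2515 CPM. *Apoe* had 8927, 16260, and 8530 CPM, *Msr1* 132, 184, and 91.0 CPM, and *Abca1* 484, 465.9, and 406 CPM, so that none of these 3 differed by 2-fold from the contralateral library. *Cd36* was lower, with 840.0 CPM against 305 and 356 CPM, ratios of 0.363 (0.348 to 0.378) and 0.424 (0.407 to 0.442).

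At least 2-fold higher than in the contralateral library were 6 of the 10 members in early mono/macros, when 8.82% of 8297 genes with at least 10 CPM in either library were, and 1 was at least 2-fold lower (22.1%). The same 6 were higher in the late library (7.54% of 8263 genes), and *Cd36* again lower (22.7%). These counts too follow from how the genes were picked. *Spp1* and *Apoc2*, at 7.48 and 6.09 CPM in the contralateral library, reached the minimum of 10 CPM only through the AVF libraries. In cells thinned to 1000 UMIs, 47.8% of early and 15.0% of late mono/macros had a *Spp1* UMI, 30.6% and 14.0% a *Trem2* UMI, and 17.2% and 8.85% a *Gpnmb* UMI. In the contralateral library the thinned shares were 0.160%, 2.56%, and 1.28%. Without thinning, 87.4% of early mono/macros had a *Spp1* UMI at a median of 13140 UMIs per cell, and 57.6% of early erythroid cells, which should lack the gene, had one at a median of 4496. Thinning left out 139, 7, and 5 mono/macros of the contralateral, early, and late libraries.

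Since other clusters made up the mono/macros of each library, levels within a cluster are set side by side. In cluster 11, with 51 contralateral, 884 early, and 915 late cells, *Spp1* had 9.65 CPM (3.13 to 22.5), 2033 CPM (2009 to 2058), and 315 CPM (305 to 325). *Gpnmb* had 15.4, 403, and 229 CPM there, *Trem2* 46.3, 608, and 210 CPM, and *Fabp5* 63.7, 1819, and 453 CPM. *Cd36* had 635, 226, and 320 CPM. The order of the 3 libraries within this cluster was that of all mono/macros for these 5 genes. *Apoc2* had 5.79, 96.7, and 12.6 CPM there, the first from 3 UMIs. In cluster 12 *Lgals3* had 2992 CPM (2665 to 3347) in the 14 contralateral cells, 3377 CPM in early, and 3699 CPM in late cells. Those 14 cells held 16 of the 22 contralateral mono/macro UMIs of *Apoc2*. Its level in cluster 12 was 156.9 CPM (89.7 to 254.9) in them, 127.5 CPM in early, and 56.3 CPM in late cells, so it was not higher in AVFs. *Cd36* ran the other way in cluster 12 than in cluster 11, with 226 CPM (143 to 339) in the 14 contralateral cells against 371 CPM (362 to 381) in early and 397 CPM (386 to 409) in late cells. In cluster 6 it had 896, 257, and 340 CPM. *Apoe* had 8900, 22690, and 11800 CPM in cluster 6 and 10550, 24550, and 11320 CPM in cluster 11. In cluster 12 its levels were 1462, 9166, and 5398 CPM. Early cells thus had more than 2-fold the contralateral *Apoe* level within each of these clusters. The 25 early cells of cluster 6 had 87.8 CPM of *Spp1* (56.8 to 130) and 3.51 CPM of *Gpnmb* (0.0889 to 19.6), so that early levels differed widely between mono/macro clusters.

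**Figure D3:**
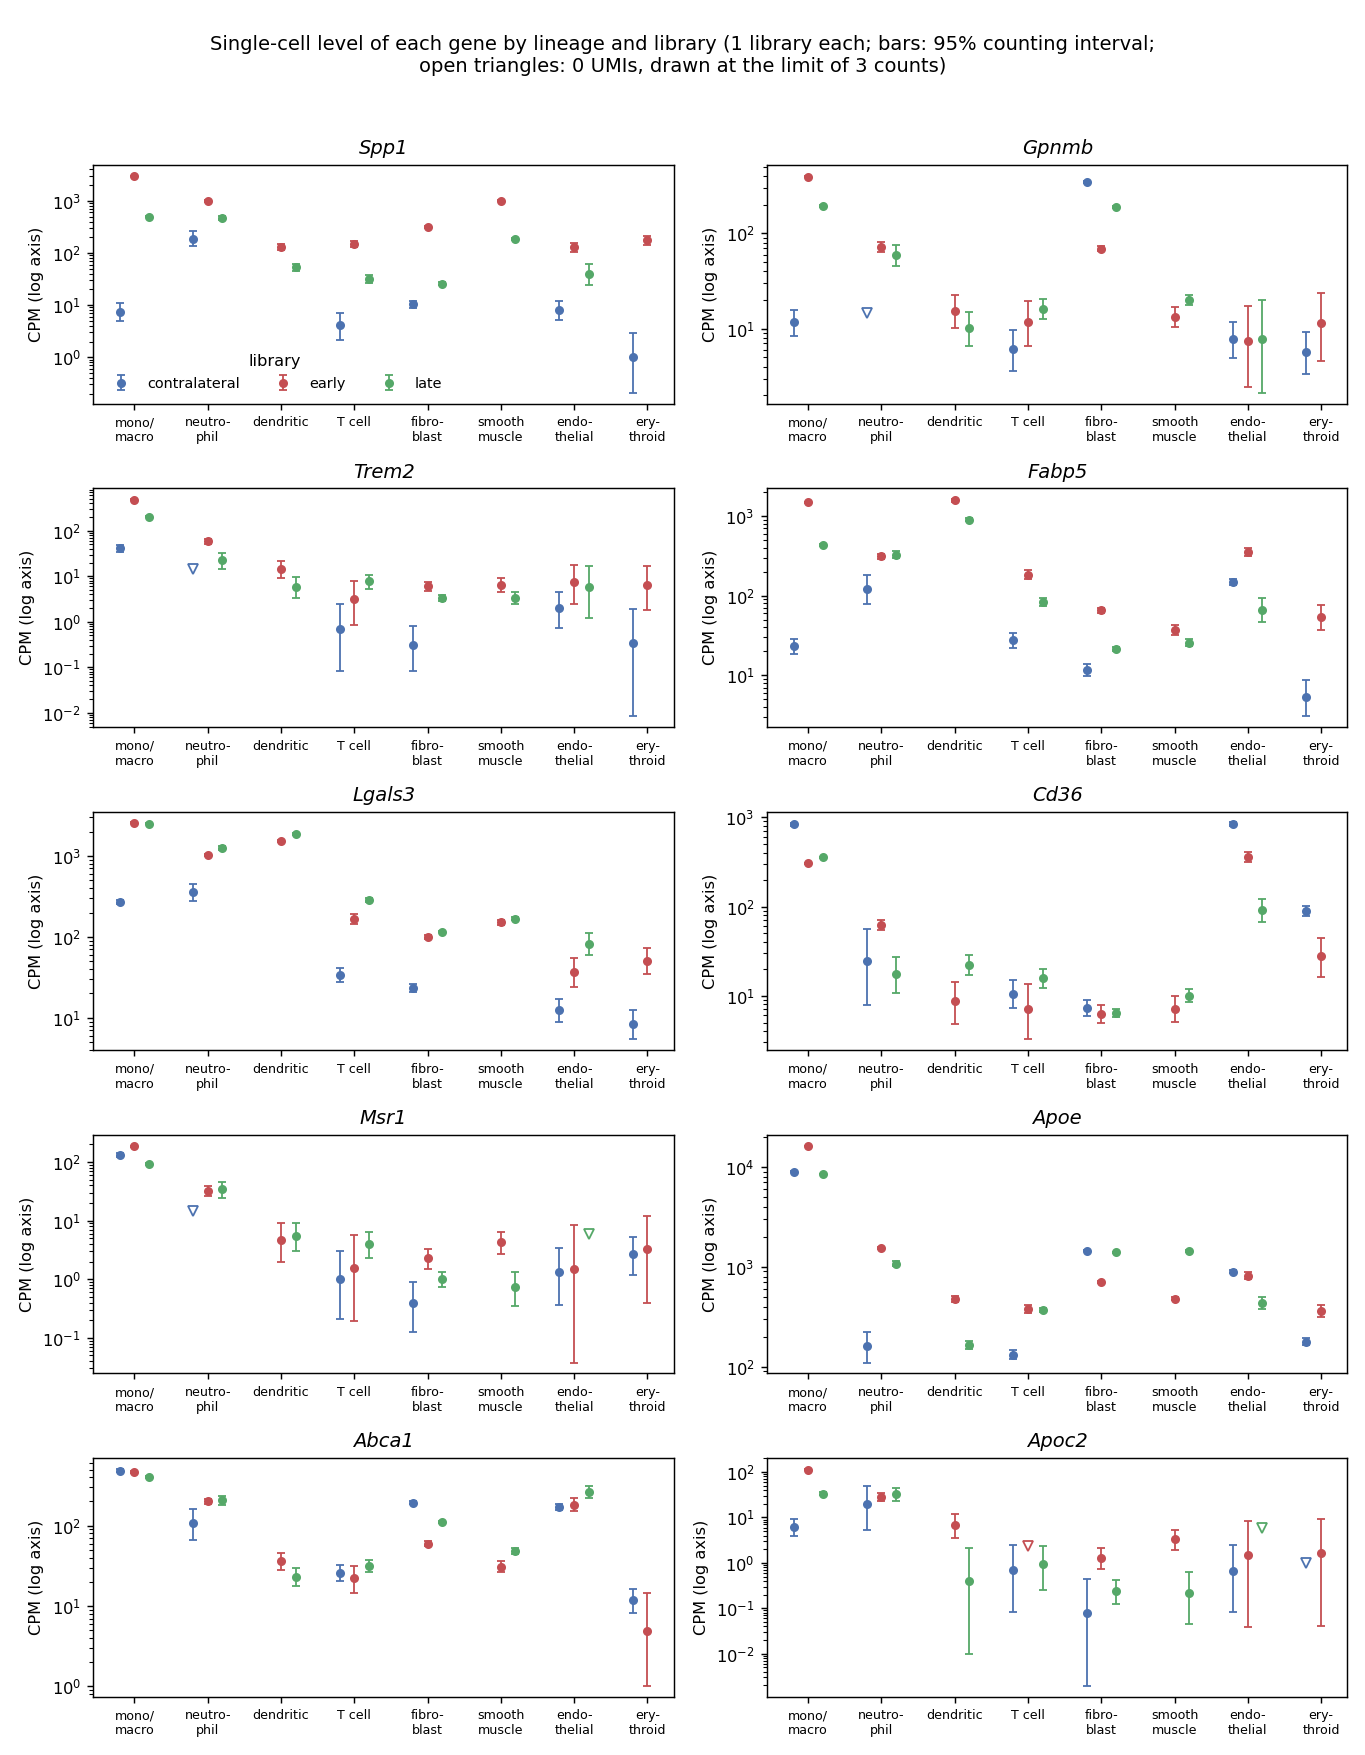
Level of the 10 genes in CPM (log axis) by lineage in the contralateral, early, and late single-cell libraries, 1 library each, with 95% counting intervals and open triangles at the limit of 3 counts where there were 0 UMIs. Lineages under 50 cells in a library are not drawn; among the named lineages drawn, *Spp1* is highest in early mono/macros and also high in early neutrophils and SMCs, and *Gpnmb* is high in contralateral fibroblasts.

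The label of macrophage genes did not hold for all members in the contralateral library. Of its 4657 *Gpnmb* UMIs, 96.4% were in fibroblasts, and in the early library 83.9% of 13218 were in mono/macros. In the late library 63.5% of 14835 were in fibroblasts and 31.5% in mono/macros. *Spp1* had 337 UMIs in the contralateral library. Of these, 8.01% were in mono/macros, 39.5% in fibroblasts, 25.5% in Schwann cells, and 11.6% in neutrophils. Contralateral *Fabp5* UMIs were to 45.6% in endothelial cells and to 8.65% in mono/macros, *Abca1* UMIs to 48.6% in fibroblasts and to 33.9% in mono/macros, and *Cd36* UMIs to 41.0% in endothelial cells and to 49.7% in mono/macros. *Msr1* and *Trem2* were mono/macro genes in all 3 libraries, with 91.9% to 94.1% and 89.2% to 92.1% of their UMIs there.

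*Gpnmb* in fibroblasts went the opposite way to *Gpnmb* in mono/macros. It had 347 CPM (337 to 357) in contralateral, 69.4 CPM (64.6 to 74.3) in early, and 190 CPM (186 to 194) in late fibroblasts. Levels differed between clusters: cluster 1 had 395 CPM in the contralateral library, cluster 3 had 35.6 CPM in the early and 146 CPM in the late library, and cluster 0 had 139, 169, and 193 CPM in the 3 libraries. The 26 late cells of cluster 1 had 617 CPM. In cluster 0, the one with at least 99 cells in each library, *Gpnmb* was thus not lower in the early library. The bulk vessels, with overlapping contralateral and early *Gpnmb* levels, held both cell types, and their fibroblast marker sums ran from 13710 to 32350 CPM in contralateral veins and from 2276 to 19960 CPM in early AVFs. How much each cell type gave to the bulk level was not tested.

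*Cd36* was lower in both of its main cell types. Endothelial cells had 844 CPM (811 to 877) in the contralateral, 357 CPM (313 to 405) in the early, and 91.7 CPM (67.4 to 122) in the late library, from 810, 65, and 75 cells. They were 12.8%, 1.37%, and 1.29% of the cells of these libraries.

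*Spp1* was also detected outside mono/macros in the early library: SMCs had 1003 CPM (976 to 1031), neutrophils 999 CPM (966 to 1032), and fibroblasts 317 CPM (307 to 328). The 33 contralateral SMCs had 0 *Spp1* UMIs, so that early SMCs were at least 111-fold higher by a limit of 3 counts summed over those cells. Erythroid cells, which should lack *Spp1*, had 174 CPM (143 to 211) in the early library, and T cells, which can make it when activated, 150 CPM (130 to 173). T cells did not exceed the erythroid level, nor did dendritic and endothelial cells, at 132 and 128 CPM. In the late library SMCs had 182 CPM. A cluster of shallow barcodes was left unnamed: *Pth*, *Chga*, and *Cfd* led it, but its 10 leading genes also held the macrophage genes *Mmp12*, *Lyz2*, *Tyrobp*, *Ctss*, *Trem2*, and *Spp1* itself. It had 4573 CPM in the early library at a median of 1258 UMIs. Mono/macros held 77.3% of early and 69.4% of late *Spp1* UMIs, and SMCs 14.4% of the late ones.

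*Fabp5* was as high in dendritic cells as in mono/macros of the early library, with 1565 CPM (1506 to 1624) against 1487 CPM (1473 to 1501), and higher in the late library, with 895 CPM (859 to 932) against 432 CPM (423 to 440). *Lgals3* had 1537 and 1877 CPM in early and late dendritic cells. Among 8 or 9 named lineages with at least 50 cells, mono/macros had the highest level of 4 of the 10 members in the contralateral library. They had that of 8 in the early and of 9 in the late library. Unnamed clusters were not ranked, and the shallow one had more *Spp1* than mono/macros in the early library. Some late rankings were close. *Apoc2* had 33.15 CPM against 33.05 CPM in neutrophils, *Gpnmb* 194.8 against 190.1 CPM in fibroblasts, and *Spp1* 500.2 against 461.8 CPM in neutrophils.

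**Figure D4:**
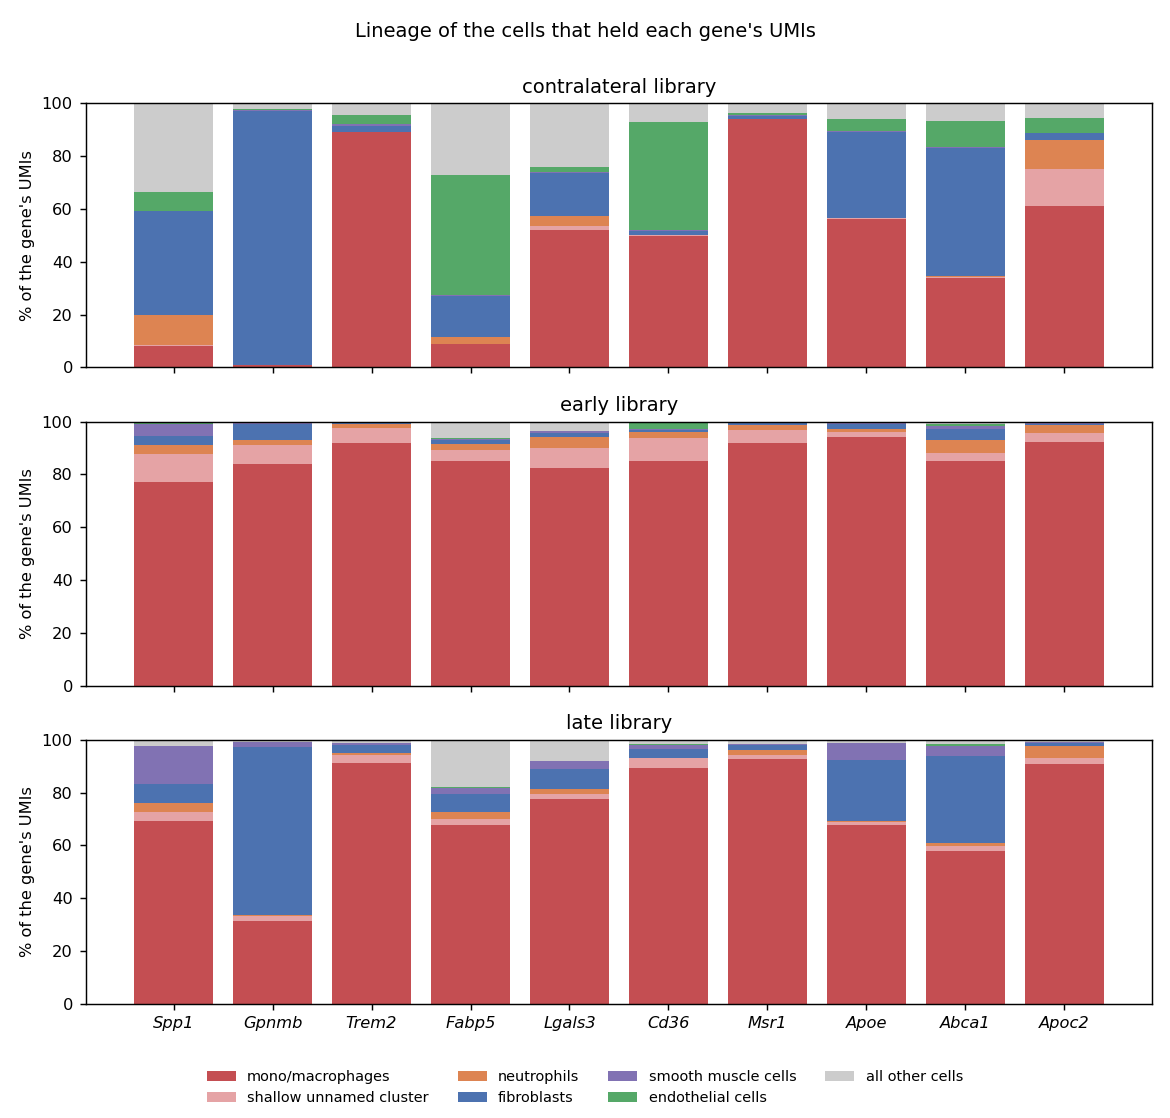
Share (%) of each gene's UMIs held by mono/macros, the shallow unnamed cluster, neutrophils, fibroblasts, SMCs, endothelial cells, and all other cells, in the contralateral, early, and late single-cell libraries. Mono/macros hold most UMIs of every gene in the early library, whereas fibroblasts hold 96.4% of contralateral and 63.5% of late *Gpnmb*.

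Within mono/macros, clustered again without the members and other lists, the genes were spread unevenly over 9 subclusters. *Spp1* was highest in subcluster 3, named inflammatory-like from its markers and led by *Mmp12* and *Arg1*, with 4575 CPM over the 3 libraries. It had 7636 CPM (7560 to 7713) in the 278 early and 1324 CPM (1291 to 1357) in the 212 late cells there. *Gpnmb*, *Trem2*, and *Fabp5* had their highest summed levels in subcluster 5, left unnamed, with 494, 641, and 2061 CPM, but 782 of its 850 cells were early, so that libraries are given apart. In early cells *Gpnmb* had 516 CPM (504 to 529) in subcluster 5 and 445 CPM (426 to 463) in subcluster 3, *Trem2* 656 CPM (642 to 671) and 476 CPM (457 to 496), and *Fabp5* 2171 and 1316 CPM. In late cells *Trem2* and *Fabp5* were again highest in subcluster 5, at 444 and 624 CPM, *Fabp5* beside 595 CPM (579 to 612) in subcluster 4 against 624 CPM (574 to 678). *Gpnmb* was not: it had 200 CPM (171 to 231) in subcluster 5 and 300.3 CPM (289 to 313) in subcluster 4.

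*Cd36* was high in subcluster 0, resident-like and mostly contralateral with 644 of 670 cells, at 889 CPM, and in subcluster 3 at 777 CPM. In the monocyte-like subclusters 2 and 6 it had 65.9 and 22.5 CPM. *Abca1* was lowest in subcluster 6 as well, at 59.0 CPM, when the other subclusters had 267 to 530 CPM. *Lgals3* was high in subclusters 3 and 2, at 4471 and 3494 CPM, and *Apoe* in subclusters 1, resident-like, and 5, at 25850 and 22970 CPM. *Apoc2* was highest in the monocyte-like subclusters, at 129 CPM in each. Subcluster 0 was led by hemoglobin and *Cd209* genes. Its *Spp1* level of 243 CPM came largely from 7 early cells with 10030 CPM (9309 to 10800), when its 644 contralateral cells had 8.58 CPM.

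**Figure D5:**
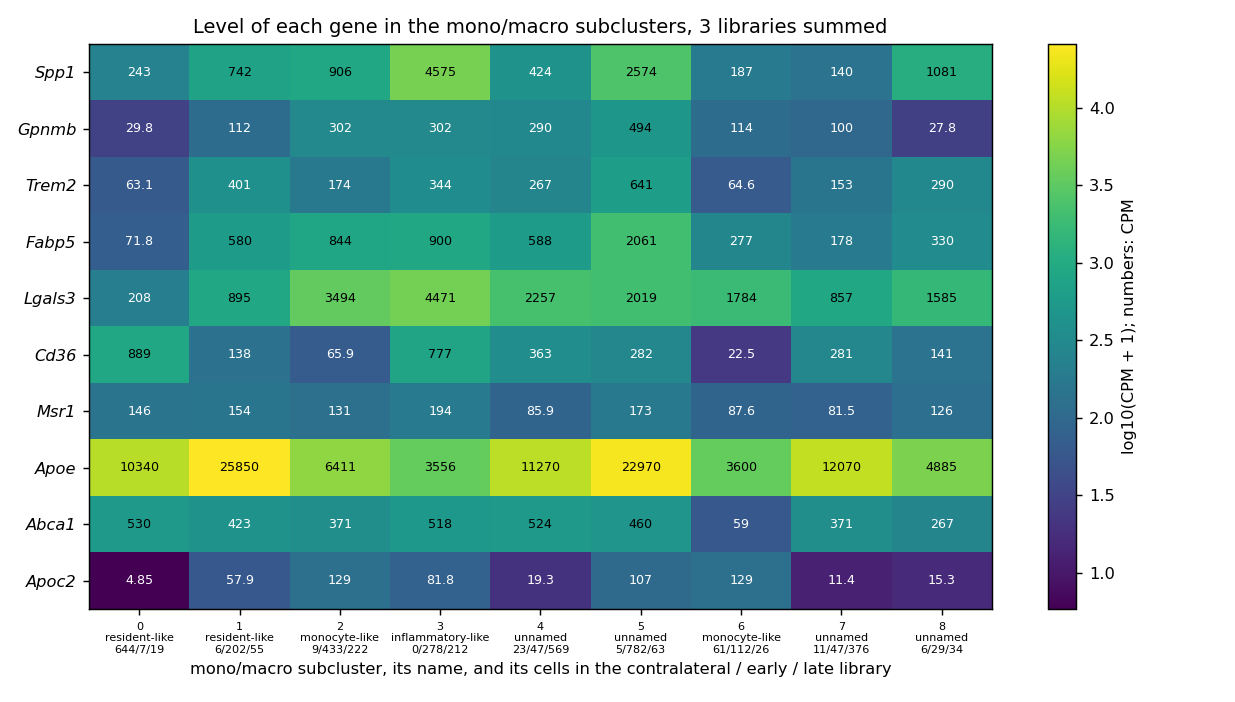
Level of the 10 genes in the 9 mono/macro subclusters, 3 libraries summed, as log10(CPM + 1) (color) with the CPM in each cell. Under each column stand the subcluster number, its name, and its cells in the contralateral, early, and late library; the summed level of *Spp1* is highest in subcluster 3 and those of *Gpnmb*, *Trem2*, and *Fabp5* in subcluster 5, whose cells are mostly early.

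Other genes of these pathways were measured in mono/macros too. *Cd44* and *Itga5* were 3.12 (2.92 to 3.35) and 3.97 (3.19 to 5.00) times as high in the early as in the contralateral library, and 5.00 and 5.4 times in the late library. *Ctsd*, *Cstb*, *Tyrobp*, and *Cd63* had early ratios of 3.27, 3.75, 2.29, and 2.14, while *Plin2* had 1.83 and *Ctsb* 1.19. *Insig1* and *Mylip* had early ratios of 0.261 (0.243 to 0.280) and 0.371 (0.341 to 0.404). *Axl* had a ratio of 2.57 (2.40 to 2.75) for late over early. By list, at least 2-fold higher in early mono/macros were 5 of 10 osteopontin receptors, 5 of 16 lysosomal, 4 of 10 lipid storage, 4 of 10 *Trem2* signalling, 3 of 10 other uptake receptor, 2 of 9 sterol synthesis, and 1 of 7 efflux genes. At least 2-fold lower were 3, 0, 0, 0, 4, 1, and 1 of the same lists. Of the 8297 genes with at least 10 CPM in either library, 8.82% were at least 2-fold higher and 22.1% at least 2-fold lower. List genes were counted without that minimum, among them some with 1 contralateral UMI. The list counts and these shares are therefore not matched, and no excess is read from them.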

How the data were processed

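The deposited bulk table holds raw read counts per gene for 25 vessels, which the authors obtained from ultra-low-input poly(A) libraries aligned with STAR. The 3 single-cell libraries were deposited as UMI count matrices from Cell Ranger. The submitters' processing notes name mm10 and GRCm38, and the annotation release is not given in the sources used here. A gene entered the fit where its counts, normalized by DESeq2, averaged 100 or more, as for 12673 of 56980, and 1 model over the 4 groups was run in edgeR 4.0.16 (TMM, quasi-likelihood, R 4.3.3), with DESeq2 1.42.0 as an alternative. Adjusted *p* values are Benjamini-Hochberg. Nothing says how vessels relate beyond 1 library each, so *p* values measure the spread between these libraries. Cells were clustered with scanpy 1.11.5 without members, lists, and markers. UMIs were summed per library and lineage, and exact Poisson or binomial intervals cover counting error only. The fitting script was tested on simulated data. Members and gene lists were chosen with earlier results of these data known. Named were all members and, of each list, the 3 genes called in early against contralateral vessels and the 2 called in late against early AVFs with the largest changes, plus the 5 genes most like *Spp1*, *Gpnmb*, and *Trem2*. *Itga9*, *Syk*, *Lamp1*, *Fabp4*, *Lrp1*, *Olr1*, and *Vldlr* were named after their values were seen. Alternatives were other normalizations, filters, tests, single sexes, and leaving out each vessel.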

Additional observations from a re-analysis of the deposited data

Results flagged for a closer look

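In 36 groups, 9 genes in each of 4 groups of 5 to 8 vessels, 6 held a vessel whose gap to its nearest neighbor exceeded Dixon's 95% limit. The limit was applied to CPM without the logarithm. Its rate of about 1 in 20 by chance holds for normally spread values only. Levels here could be skewed, as for *Trem2* in early AVFs, with a mean of 207 and a median of 99.4 CPM. The 6 are therefore listed as a description and not as an excess over chance. Among contralateral veins *Gpnmb* was 528 CPM in vein 633, when the next vein had 293 CPM. *Trem2* was 6.52 CPM in vein 35, when the next had 1.79 CPM. Vein 31 held 202 CPM of *Fabp5* and 5717 CPM of *Apoe*, when the next veins had 96.4 and 3393 CPM. Among early AVFs, AVF 6 held 659.3 CPM of *Trem2* and 5596 CPM of *Lgals3*, when the next had 312 and 2459 CPM. Its neutrophil and platelet marker sums, 4454 and 12690 CPM, were the highest of the early group as well, and their part in these values was not tested.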

How the results depend on the processing

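Of 2393 alternative values, 2240 were counted as the same, 48 lost a call, 4 gained one, 82 moved, and 19 reversed. A fold change or correlation was the same where it kept its direction and side of the threshold. A count was the same where it was equal or close, and a single-cell CPM where it lay within the main counting interval. Of 1782 bulk fold changes 1715 were the same, but 61 of 150 single-cell CPM values moved out of that interval. No fold change reversed in a comparison in which that member was called. In female vessels alone, the members called higher numbered 3 at the early, 0 at the mid, and 0 at the late time, and 0 fell from early to late. The reversed log2 fold changes there were 0.165 for *Gpnmb* (early against contralateral), 0.227 for *Cd36* and 0.02 for *Abca1* (mid against early), and 0.176 for *Apoe* (late against mid). In male vessels alone, 1 member was called higher in mid and 1 in late AVFs, and 0 were called lower at any time or from early to late. There the values were −0.268 for *Abca1* in mid AVFs and, in late AVFs against contralateral veins, −1.361 for *Gpnmb*, 0.578 for *Fabp5*, −0.439 for *Apoe*, and −0.428 for *Abca1*. *Gpnmb* had −0.541 in males for late against early. These fits hold fewer vessels, 2 of them contralateral in males. Leaving out single vessels gave 0 to 2 members falling from early to late. Reversed then were *Abca1* (mid against early, −0.193 to 0.014, highest without vein 27, vein 31, or late AVF 24), *Fabp5* (late, −0.329 to 0.279, highest without vein 31), and *Gpnmb* (early, −0.352 to 0.12, highest without vein 633). DESeq2's Wald test called 4 members lower from early to late. At an adjusted *p* under 0.05, 1 member was higher and 1 lower in mid against early AVFs, and 4 were lower in late against early AVFs. In thinned cells 2 members were at least 2-fold lower in late than in contralateral mono/macros. Without the logarithm, *r* with *Spp1* was −0.04 for *Cd36* and −0.0028 for *Abca1* in early AVFs, and −0.058 for *Fabp5* and −0.03 for *Abca1* in contralateral veins. The cause of these changes was not tested. No paired analysis was possible because the groups share no replicate numbers.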
